A study of Homo sapiens with 6 samples.

Results

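ITGB4-low SUM159 cells recovered from mouse lungs were set against ITGB4-high SUM159 cells grown in a dish, gene by gene, to describe which parts of the ITGB4-high state the recovered cells had and which they had not reached. SUM159 is a human cell line from a triple-negative breast tumour. The comparison used 4 of the 6 RNA-seq libraries: ITGB4-low clones 1 and 3 from lungs into which LM2 cells had also been injected (1 library each), ITGB4-low clone 1 from the lungs of animals that had received bleomycin by the trachea (1 library), and cultured ITGB4-high cells (1 library). The other 2 libraries, cultured ITGB4-low control clones 1 and 3, are given as the level from which the recovered cells came. LM2 is a lung-metastatic derivative of a human breast cancer line, so its reads would align like those of SUM159, and bleomycin causes lung injury with inflammation. The series' design text says that recovered cells were injected into the tail vein, the dissociated lungs were kept in a dish overnight and tdTomato-positive cells were then sorted, whereas the ITGB4-high cells and the controls came straight from culture. Passage through a lung, dissociation, sorting and the trigger therefore cannot be told apart in this comparison, and neither can the ITGB4-high origin and the dish. For clone 3 the LM2 co-injection rests on the library's title, since the treatment text names clone 1. Each ITGB4-low group is a single clone per library. Directions are reported where all 3 lung libraries lay on the same side of the ITGB4-high library.

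ITGB4 is the beta chain of integrin α6β4, a laminin receptor that anchors epithelial cells to the basement membrane at hemidesmosomes. Carcinoma cells can move between an epithelial state, with keratins, desmosomes and hemidesmosomes, and a mesenchymal state, with fibronectin, fibrillar collagens and collagen-crosslinking enzymes. Intermediate states keep part of each. Transcription factors such as ZEB1 repress epithelial genes, and TGF-beta ligands are among the signals that promote the mesenchymal state.

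Total counts were between 13607953 and 22222121 per library, and 15673 genes passed the filter on low counts. Levels are given in CPM, counts scaled to 1e+06 per library after normalisation. A floor of 3 counts corresponded to 0.135 to 0.22 CPM, which covers counting error only. Of the epithelial markers, EPCAM and CDH1 (E-cadherin) had 0 to 3 counts in each library and were not tested, and the mesenchymal marker VIM (vimentin) stood at 2174 to 3601 CPM in every library. EPCAM and CDH1, which define epithelial cells, were thus at or near 0 in ITGB4-high cells too. CLDN4 and GRHL2 were also near 0, with 0 to 7 and 0 to 1 counts per library. Other epithelial markers were present in every library: KRT18 at 81 to 117 CPM, KRT8 at 29.5 to 92.7 CPM and ESRP1 at 1.6 to 4.67 CPM. The ITGB4-high group is 1 library, so its spread was taken from the other groups, and every lung difference below shares that library. Clone 1 supplied 2 of the 3 lung libraries. Nothing in the labels says that libraries came from separate cultures or sets of animals, so p-values measure only the spread between these libraries.

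ITGB4 itself (chromosome 17, 75721328 to 75757818, plus strand, GRCh38) stood at 471 and 442 CPM in LM2 lung clones 1 and 3 and at 306 CPM in bleomycin lung clone 1, against 384 CPM in ITGB4-high cells and 25.9 and 24.6 CPM in ITGB4-low control clones 1 and 3. The lung libraries straddled the ITGB4-high level and lay far above both controls. Their mean was 406 ± 88.1 CPM (SD, n = 3), and the log2 difference from ITGB4-high was 0.08 (SE 0.26, adjusted p = 0.894, edgeR's quasi-likelihood test). Both LM2 libraries were above ITGB4-high and the bleomycin library was below it. In bulk libraries, fewer cells of a kind and less RNA per cell cannot be told apart, here and below.

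Between lung-recovered and ITGB4-high cells, 17 of 15673 genes passed an adjusted p of 0.05, which is 0.108% of those tested. Of these, 5 were higher in lung cells (0.0319%) and 12 were lower (0.0766%), with all 3 lung libraries on 1 side for each. Unadjusted, 2863 genes had a p under 0.05. The smallest of the 17 log2 differences was 1.55 in size. Of the 17, 16 were at least 2-fold apart between ITGB4-high cells and both controls. On these 16, each lung library had covered under 0.5 of the log2 distance from the control mean to ITGB4-high. Over all genes tested, 1.4% were of this kind and higher in ITGB4-high cells, and 3.69% were of this kind and lower. A call already requires a gap from the same ITGB4-high library that defines these genes. The 16 therefore describe the calls and add no evidence to their count of 17. The count rests on few libraries: edgeR called 0 genes without the bleomycin library, without control clone 1, without control clone 3, with the clone as a replicate block, or with the LM2 and bleomycin lungs as separate groups. It called 1432 without LM2 clone 1 and 37 without LM2 clone 3. DESeq2 called 1086 genes, 789 higher and 297 lower (72.7% higher, against 29.4% of the edgeR calls), and all 17 were among them.

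The gene with the smallest p among those higher in lung cells was TGFB2 (chromosome 1, 218346235 to 218444619, plus strand), a TGF-beta ligand. It stood at 30.4, 31.4 and 39.3 CPM in LM2 clone 1, LM2 clone 3 and bleomycin clone 1, against 3.5 CPM in ITGB4-high cells and 118 and 140 CPM in the controls. The lung libraries lay between the cultured states and overlapped neither (log2 difference from ITGB4-high 3.26, SE 0.27, adjusted p = 0.039). PKNOX2, a homeobox transcription factor of the TALE class, stood at 344, 421 and 354 CPM in lung cells, against 76.9 CPM in ITGB4-high cells and 433 and 449 CPM in controls (2.28, SE 0.21, adjusted p = 0.0409). For PKNOX2 the lung libraries were just under the controls and far above ITGB4-high.

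The other 3 genes that were higher stood above both cultured states. XAF1, an interferon-induced gene that binds the apoptosis inhibitor XIAP, had 57.1, 47.8 and 90.3 CPM in lung cells, against 0.292 CPM in ITGB4-high cells, close to the floor, and 4.22 and 2.8 CPM in controls (7.76, SE 0.73, adjusted p = 0.0409). XAF1 lies on the short arm of chromosome 17, whose genes as a whole stood above ITGB4-high in lung cells by a median log2 difference of 0.832, 0.805 and 0.787 in the 3 libraries. STAT5A, a transcription factor activated by cytokine and prolactin receptors, had 11.3, 10.7 and 8.97 CPM in lung cells, against 0.511 CPM in ITGB4-high cells and 0.416 and 0.322 CPM in controls (4.31, SE 0.43, adjusted p = 0.0484). It was the 1 called gene on which ITGB4-high and control cells were not at least 2-fold apart. SORCS2, a sortilin-family receptor, had 13, 10.4 and 12.8 CPM in lung cells, against 0.073 CPM in ITGB4-high cells and 0.693 and 0.368 CPM in controls (adjusted p = 0.0409). Its ITGB4-high level is under the floor of 3 counts, so no fold is given. STAT5A and SORCS2 were named after their values were seen.

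Among the 12 genes that were lower in lung cells, 5 had a mean log2 CPM of 2 or more over the 6 libraries. NEO1 (chromosome 15, 73051710 to 73305206, plus strand), the neogenin receptor for netrins and repulsive guidance molecules, had 4.11, 4.35 and 4.87 CPM in lung cells, against 34.5 CPM in ITGB4-high cells and 2.49 and 2.76 CPM in controls (-2.95, SE 0.22, adjusted p = 0.0372). GAL, which encodes the neuropeptide galanin, had 27.3, 31.1 and 35.1 CPM in lung cells, against 141 CPM in ITGB4-high cells and 15.6 and 13 CPM in controls (-2.18, SE 0.19, adjusted p = 0.039). Both genes were above the controls in every lung library, GAL by a log2 difference of 1.13 and NEO1 by 0.75, and stood more than 2-fold below ITGB4-high. CD3EAP, a subunit of RNA polymerase I, had 32.2, 38.9 and 34.7 CPM in lung cells, against 120 CPM in ITGB4-high cells and 42.8 and 44.4 CPM in controls (-1.77, SE 0.16, adjusted p = 0.039). FBXO45, an F-box protein of a ubiquitin ligase, had 71.3, 62.5 and 63.8 CPM in lung cells, against 192 CPM in ITGB4-high cells and 51.3 and 47.3 CPM in controls (-1.55, SE 0.14, adjusted p = 0.0409). FBXO45 lies on the long arm of chromosome 3, whose genes as a whole stood below ITGB4-high in lung cells by a median log2 difference of -0.397, -0.352 and -0.330.

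MYO1D (chromosome 17, 32492522 to 32877177, minus strand), a class I myosin, had 3.02, 3.52 and 2.31 CPM in lung cells, against 50.7 CPM in ITGB4-high cells and 24.7 and 19 CPM in controls (-4.10, SE 0.26, adjusted p = 0.0368). On MYO1D the lung libraries lay below both cultured states, so recovered cells were farther from ITGB4-high than the cells they came from. CADM1, an immunoglobulin-like cell adhesion molecule named after its values were seen, did the same, with 0.542, 0.831 and 0.385 CPM in lung cells, against 67.1 CPM in ITGB4-high cells and 13.1 and 4.6 CPM in controls (-6.81, SE 0.60, adjusted p = 0.039).

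A further group stood far higher in ITGB4-high cells than in any other library. ALDH1A1 (chromosome 9, 72900662 to 73080442, minus strand), a retinaldehyde dehydrogenase used as a marker of breast cancer stem cells, had 0.155, 0.256 and 0.0641 CPM in lung cells, against 22.8 CPM in ITGB4-high cells and 0 and 0.184 CPM in controls (adjusted p = 0.0426). PPL, the plakin family protein periplakin of desmosomes and the cornified envelope, had 0.233, 0.0639 and 0.256 CPM in lung cells, against 10.5 CPM in ITGB4-high cells and 0.0693 and 0.184 CPM in controls (adjusted p = 0.0426). Levels of both in lung and control cells were at or near the floor, so no fold is given. ALDH1A1 does not stand for stem cell markers as a set. Of 12 tested, 2 were at least 2-fold above ITGB4-high in every lung library and 1 was below. Over all genes tested these shares were 5.04% and 1.67%. The median log2 difference of the 12 was -0.02. Named after their values were seen, SEMA3E (a secreted semaphorin), LINC00632 (a noncoding RNA) and C20orf197 had at most 0.192 CPM in any lung library, against 11.6, 7.37 and 9.34 CPM in ITGB4-high cells (adjusted p = 0.0372, 0.0375 and 0.0368, in the order of the genes). In controls SEMA3E and C20orf197 were near the floor and LINC00632 averaged 1.13 CPM. ALDH1A1, PPL, SEMA3E and C20orf197 passed the filter on low counts only through the ITGB4-high library, where they were high. Their p-values rest on that entry and on a spread taken from libraries near the floor. For these genes the p-values therefore lend no support to a lower level in lung cells. FOXQ1, a forkhead transcription factor also named after its values were seen, had 1.39, 2.43 and 2.56 CPM in lung cells, against 32.7 CPM in ITGB4-high cells and 1.8 and 1.75 CPM in controls (-3.93, SE 0.33, adjusted p = 0.039).

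**Figure D1:**
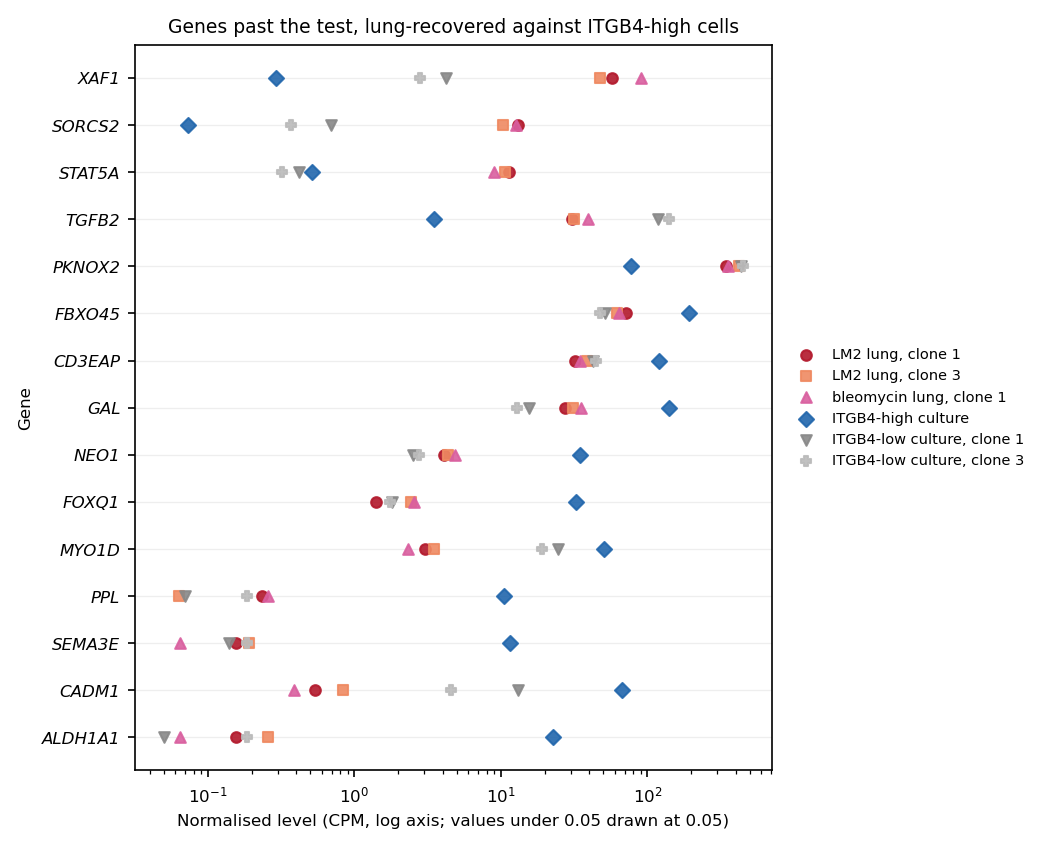
Normalised level in CPM (log axis) of 15 of the 17 genes that passed, in each of the 6 libraries, ordered by the log2 difference between lung and ITGB4-high cells; each symbol is 1 library, and values under 0.05 CPM are drawn at 0.05. The 3 lung libraries of each gene lie together, away from the ITGB4-high library; ALDH1A1 had 0.155, 0.256 and 0.0641 CPM in lung cells and 22.8 CPM in ITGB4-high cells.

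The start-site regions of 4 genes are shown because they stand for the outcomes described here: KRT75, a follicular keratin that lung cells shared with ITGB4-high cells, ALDH1A1, which they lacked, and TGFB2 and COL6A2, which stayed above the ITGB4-high level. Each is 250 bases before to 50 after the RefSeq start (GRCh38.p14), written 5′ to 3′ along the gene's strand: KRT75 at chr12:52434322-52434621 (minus), ALDH1A1 at chr9:72953004-72953303 (minus), TGFB2 at chr1:218345086-218345385 (plus) and COL6A2 at chr21:46097862-46098161 (plus). Capitals mark matches on either strand to the E-box CACCTG, read as CAGGTG on the other strand, which ZEB and SNAI factors bind, or to the TATA-type motif TATAAA. The AP-1 motif TGANTCA was searched as well and had no match in these 4. The regions of RASIP1, which lung cells shared with ITGB4-high cells, and NEO1, which stayed below that level, were searched too. They held no match to any of these motifs and are not shown, so the regions shown are those with a match.
KRT75: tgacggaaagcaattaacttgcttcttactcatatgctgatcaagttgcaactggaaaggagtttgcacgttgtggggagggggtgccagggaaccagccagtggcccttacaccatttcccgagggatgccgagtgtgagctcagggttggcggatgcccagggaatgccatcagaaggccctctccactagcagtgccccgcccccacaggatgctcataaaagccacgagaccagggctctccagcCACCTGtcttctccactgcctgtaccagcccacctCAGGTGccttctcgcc
ALDH1A1: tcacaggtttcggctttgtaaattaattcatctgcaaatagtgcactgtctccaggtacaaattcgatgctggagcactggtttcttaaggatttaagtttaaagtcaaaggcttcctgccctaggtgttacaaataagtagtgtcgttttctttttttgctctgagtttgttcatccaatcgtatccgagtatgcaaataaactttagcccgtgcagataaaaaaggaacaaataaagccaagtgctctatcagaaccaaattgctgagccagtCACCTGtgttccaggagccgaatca
TGFB2: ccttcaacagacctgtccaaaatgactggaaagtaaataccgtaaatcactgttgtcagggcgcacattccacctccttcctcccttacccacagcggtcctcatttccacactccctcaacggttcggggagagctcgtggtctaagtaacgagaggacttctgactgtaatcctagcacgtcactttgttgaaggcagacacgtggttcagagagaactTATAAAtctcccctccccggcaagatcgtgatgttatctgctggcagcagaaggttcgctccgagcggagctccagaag
COL6A2: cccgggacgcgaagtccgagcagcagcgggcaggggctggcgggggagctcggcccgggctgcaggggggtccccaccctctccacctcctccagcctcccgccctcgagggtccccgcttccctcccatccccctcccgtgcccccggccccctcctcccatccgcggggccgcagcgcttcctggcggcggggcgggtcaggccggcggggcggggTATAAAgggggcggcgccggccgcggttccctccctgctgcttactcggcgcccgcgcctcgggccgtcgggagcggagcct
CACCTG was found in 20.6% of 35116 RefSeq promoters of this length, TATAAA in 11.5% and TGANTCA in 7.71%. KRT75 held 2 CACCTG matches and ALDH1A1 held 1, and lung cells reached the ITGB4-high level of the first and not of the second. TGFB2 and COL6A2 each held 1 TATAAA match. A match is a run of letters and not a bound site. In KRT75, ALDH1A1 and COL6A2 the RefSeq start lies inside the GENCODE gene. The TGFB2 region lies wholly upstream of the GENCODE gene, which starts at 218346235.

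Because few genes passed, a fold rule was added after the data had been seen: a gene counts as 2-fold apart where all 3 lung libraries were at least 2-fold above, or at least 2-fold below, ITGB4-high. By this rule 790 genes (5.04% of those tested) were above ITGB4-high and 261 (1.67%) below it. Without any fold minimum, all 3 lung libraries were above ITGB4-high for 30.5% of genes and below it for 30.6%, and the median log2 difference over all genes was 0.04. Members of each gene list are counted against these shares, with no test of the list. At an unadjusted p under 0.05, 10.4% of all genes tested lay above ITGB4-high and 7.86% below, the shares against which the unadjusted counts of list members are to be read. limma-voom called 15 genes. Among list members it called 1 epithelial junction gene and 1 stem cell marker, both lower, and 0 members of the other lists. Except for ITGB4, LAMB3, KRT5, KRT14, KRT75, S100A2, RASIP1, CDH2, VIM, FN1, ZEB1, FBN1, LOX, GAS6, CXCL8, IL6, ICAM1, AREG, EREG, SNAI2 and MKI67, the genes without a call were chosen after their values were seen.

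Of 16 collagens, 13 lay above ITGB4-high in all 3 lung libraries and 2 below, and of 31 mesenchymal markers, 23 lay above and 3 below. Of the collagens, 9 were at least 2-fold above ITGB4-high in all 3 lung libraries and 1 was at least 2-fold below, with a median log2 difference of 2.39. The median was 1.42, 1.80 and 1.81 in LM2 clone 1, LM2 clone 3 and bleomycin clone 1. edgeR called 0 of them over all genes. At an unadjusted p under 0.05, 10 lay above and 2 below, and DESeq2 called 7 higher and 1 lower. ITGB4-high cells were at least 2-fold under both controls on 6 collagens, and lung cells had not reached that low level on 5 of these. Over all 1948 genes so low in ITGB4-high cells, 29.7% were not reached.

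COL6A1 and COL6A2, chains of the microfibrillar collagen VI, were far from the ITGB4-high level in every lung library. COL6A1 stood at 118, 210 and 256 CPM in lung cells, against 4.96 CPM in ITGB4-high cells and 147 and 106 CPM in controls (5.29, SE 0.62, adjusted p = 0.0641). COL6A2 stood at 146, 352 and 291 CPM in lung cells, against 6.79 CPM in ITGB4-high cells and 187 and 90.5 CPM in controls (5.27, SE 0.81, adjusted p = 0.0791). Lung and control libraries overlapped on both chains and lay far above ITGB4-high. COL5A1 had 169, 321 and 161 CPM in lung cells, against 39.5 CPM in ITGB4-high cells and 472 and 539 CPM in controls (2.46, SE 0.48, adjusted p = 0.102). COL5A2 was the collagen of this list at least 2-fold below ITGB4-high in every lung library, with 4.42, 7.29 and 8.01 CPM in lung cells, against 25.5 CPM in ITGB4-high cells and 4.43 and 4.6 CPM in controls (-1.95, SE 0.33, adjusted p = 0.0881).

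Of 31 mesenchymal markers tested, 14 were at least 2-fold above ITGB4-high in every lung library and 0 were below, and the median log2 difference was 1.49, or 1.38 with FAP, at 0 counts in ITGB4-high, set at its bound of 3 counts. edgeR called 0 of them, with 15 above and 1 below at an unadjusted p under 0.05, while DESeq2 called 14 higher. FN1, fibronectin, stood at 4670, 5608 and 6995 CPM in lung cells, against 1943 CPM in ITGB4-high cells and 9636 and 9699.5 CPM in controls (1.57, SE 0.29, adjusted p = 0.0917). LOX, the lysyl oxidase that crosslinks collagen, stood at 36.4, 38.5 and 25.8 CPM in lung cells, against 4.45 CPM in ITGB4-high cells and 49.3 and 56.6 CPM in controls (2.91, SE 0.33, adjusted p = 0.0571). Its relative LOXL2 had 145, 159 and 109 CPM in lung cells, against 28.2 CPM in ITGB4-high cells and 210 and 179 CPM in controls (2.29, SE 0.28, adjusted p = 0.0673). On these 3 genes the lung libraries lay between the cultured states and above the ITGB4-high library.

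FBN1, the microfibril protein fibrillin-1, was uneven across lung cells, at 20, 18.9 and 56 CPM, against 3.65 CPM in ITGB4-high cells and 43 and 49 CPM in controls (3.11, SE 0.81, adjusted p = 0.145). S100A4, a calcium-binding protein of mesenchymal and motile cells, had 11.2, 34.6 and 31.2 CPM in lung cells, against 1.31 CPM in ITGB4-high cells and 45.9 and 62.6 CPM in controls (4.28, SE 0.85, adjusted p = 0.103). DDR2, a receptor kinase for fibrillar collagen, had 40.9, 161 and 61 CPM in lung cells, against 2.48 CPM in ITGB4-high cells and 233 and 186 CPM in controls (5.14, SE 1.04, adjusted p = 0.105). All these lay above ITGB4-high in every lung library, and LM2 clone 3 was nearest to the controls on DDR2.

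On other genes lung cells had come closer to the low ITGB4-high level. Of 21 mesenchymal markers low in ITGB4-high cells, lung cells reached that level on 4 and had not reached it on 7. Reached means at least 0.5 of the log2 distance from the control mean to ITGB4-high in all 3 lung libraries. Not reached means under 0.5 in all 3. Over all 1948 genes low in ITGB4-high cells, 15.2% were reached and 29.7% not reached, so the counts of markers lay near these shares. GAS6, the ligand of the TAM receptors AXL and MERTK, had 20.8, 25.2 and 20.5 CPM in lung cells, against 16.8 CPM in ITGB4-high cells and 147 and 172 CPM in controls (0.40, SE 0.20, adjusted p = 0.345). ZEB1 had 124, 138 and 164 CPM in lung cells, against 113 CPM in ITGB4-high cells and 311 and 278 CPM in controls (0.34, SE 0.20, adjusted p = 0.429). The lung libraries stood near ITGB4-high and apart from the controls on both. MMP2, a gelatinase and 1 of the 4 mesenchymal markers reached, was at 49.2, 111 and 86.3 CPM in lung cells, against 41.1 CPM in ITGB4-high cells and 301 and 398 CPM in controls (1.00, SE 0.46, adjusted p = 0.319). CDH2, N-cadherin, was split, at 71.4, 152 and 121 CPM in lung cells, against 68 CPM in ITGB4-high cells and 248 and 217 CPM in controls (0.75, SE 0.41, adjusted p = 0.381). A p that misses the threshold does not show equal levels.

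**Figure D2:**
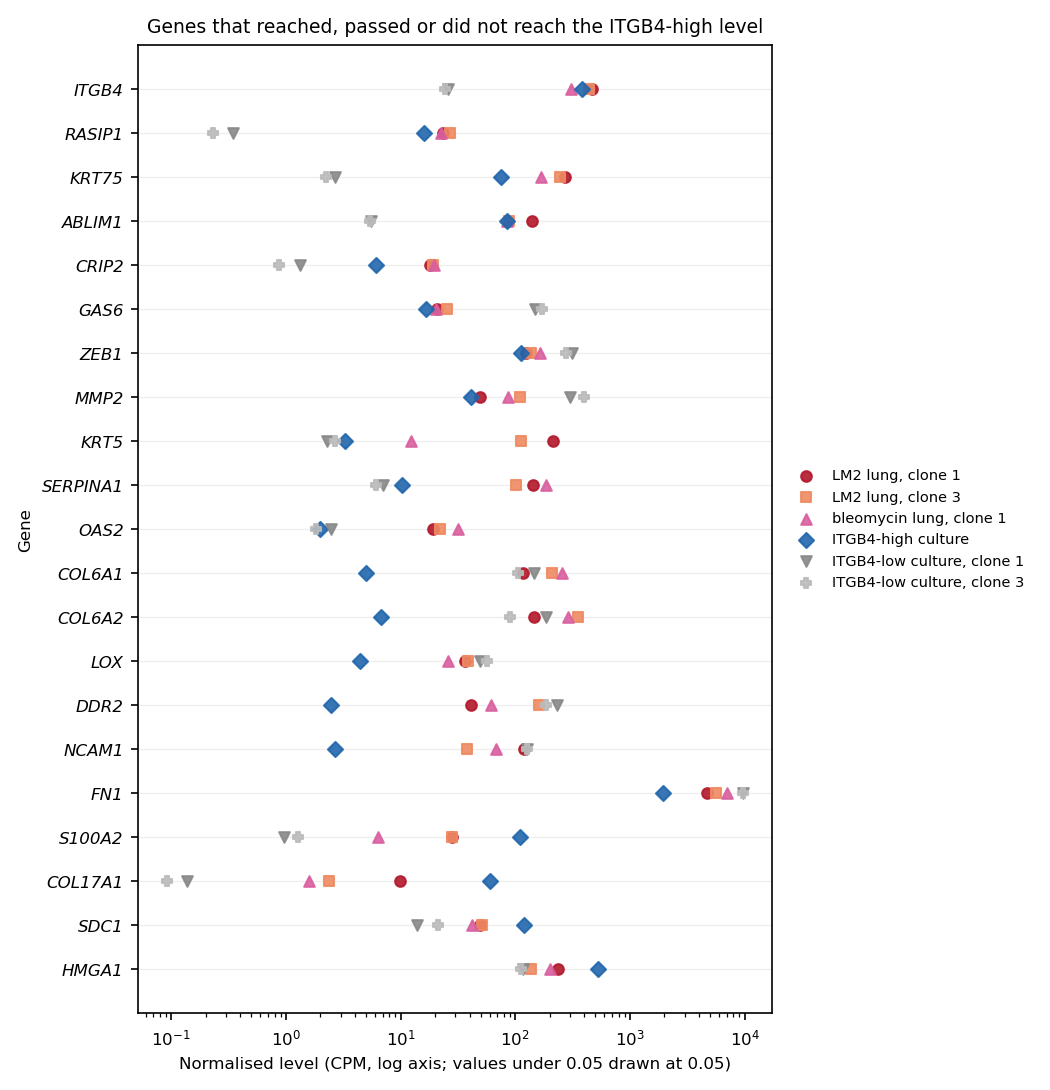
Normalised level in CPM (log axis) of 21 genes in each of the 6 libraries, from genes on which lung cells stood at the ITGB4-high level (ITGB4 at the top) to genes high in ITGB4-high cells that they approached in part (HMGA1 at the bottom); each symbol is 1 library. On COL6A1 the lung libraries at 118, 210 and 256 CPM lie among the controls, while on GAS6 those at 20.8, 25.2 and 20.5 CPM lie beside ITGB4-high at 16.8 CPM.

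Markers of lung and blood cells that a sort could carry over are given beside these matrix genes. CD3E, CD2, MS4A1, CDH5, SFTPC, HBA1 and HBA2, which define lymphocytes, endothelium, alveolar type II cells and red cells, had 0 counts in every library. Other markers on the list had counts. Endothelial PECAM1 had 30, 57 and 147 counts in lung cells, against 42 in ITGB4-high cells and 26 and 44 in controls. Endothelial KDR had 2, 102 and 27 counts in lung cells, against 42 in ITGB4-high cells and 1022 and 2290 in controls. Alveolar AGER had 33 to 55 counts in every library. The lungs were mouse and the counts are of reads aligned to the human genome, so host RNA enters these values only where mouse reads align to human genes. Levels were summed only over the list members that passed the filter. For 5 of 14 macrophage and myeloid genes the sum was 4.26, 4.47 and 12.2 CPM in lung cells. It was 2.12 CPM in ITGB4-high cells and 4.71 and 4.04 CPM in controls. The leukocyte gene PTPRC had 30, 4 and 42 counts in lung cells, against 1 in ITGB4-high cells and 3 and 4 in controls. For 3 of 8 endothelial genes the sum was 3.95, 10.6 and 12.7 CPM in lung cells, against 6.28 CPM in ITGB4-high cells. In controls it was 73.1 and 108 CPM. For 3 of 9 alveolar genes the sum was 6.51, 5.69 and 4.68 CPM in lung cells, against 3.07 CPM in ITGB4-high cells. In controls it was 6.93 and 6.16 CPM.

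Of 9 fibroblast genes, some of which are collagens counted above, the 7 tested summed to 580, 848 and 512 CPM in lung cells. Their sum was 200 CPM in ITGB4-high cells and 153 and 188 CPM in controls. Of 7 tested, 4 were at least 2-fold above ITGB4-high. COL1A1, the collagen I chain that defines fibroblasts, had 90.4, 712 and 194 CPM in lung cells, against 32.3 CPM in ITGB4-high cells and 36.3 and 29.8 CPM in controls (3.36, SE 1.27, adjusted p = 0.246), whereas PDGFRA, a growth factor receptor of fibroblasts, had 449, 27.6 and 221 CPM, against 130 CPM and 32.6 and 35.2 CPM (0.84, SE 1.26, adjusted p = 0.752). COL1A1 was highest in LM2 clone 3 and PDGFRA in LM2 clone 1. DCN, the matrix proteoglycan decorin, had 14.6, 12.8 and 39.2 CPM in lung cells, against 34.3 CPM in ITGB4-high cells and 16.8 and 21.7 CPM in controls, so both LM2 libraries were more than 2-fold below ITGB4-high. COL1A2, the partner chain of COL1A1, was at 3.95, 0.575 and 0.513 CPM in lung cells, against 0 CPM in ITGB4-high cells and 0.0693 and 0 CPM in controls. The part of other cells in the collagen result was not tested.

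Interferon response genes were also above ITGB4-high. Of 38 type I interferon response genes tested, 31 lay above ITGB4-high in all 3 lung libraries and 1 below, 10 of them by at least 2-fold with 1 at least 2-fold below, and the median log2 difference was 1.10. By library the median was 0.69 for LM2 clone 1, 1.16 for LM2 clone 3 and 1.28 for bleomycin clone 1. edgeR called XAF1 higher and no member lower, and at an unadjusted p under 0.05, 21 lay above and 1 below. DESeq2 called 16 higher and 0 lower. ITGB4-high cells were at least 2-fold under both controls on 14 of these genes, and lung cells had not reached that low level on 10. The share not reached over all 1948 genes so low in ITGB4-high cells was 29.7%.

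OAS2, an enzyme that activates the antiviral ribonuclease RNase L, had 19.3, 22.1 and 31.7 CPM in lung cells, against 1.97 CPM in ITGB4-high cells and 2.49 and 1.84 CPM in controls (3.62, SE 0.45, adjusted p = 0.0673). The lung libraries of OAS2 were above all 3 cultured ones. IFI44L, an interferon-induced gene, had 36.3, 43.6 and 79.8 CPM in lung cells, against 11.5 CPM in ITGB4-high cells and 47.8 and 56 CPM in controls (2.21, SE 0.51, adjusted p = 0.124). IFITM3, which restricts virus entry, had 222, 242 and 245 CPM in lung cells, against 111 CPM in ITGB4-high cells and 225 and 258 CPM in controls (1.09, SE 0.17, adjusted p = 0.0835). Lung and control cells overlapped on IFI44L and IFITM3. RSAD2, an antiviral enzyme, went the other way, with 0.852, 0.32 and 0.897 CPM in lung cells, against 3.14 CPM in ITGB4-high cells and 5.61 and 3.49 CPM in controls (-2.18, SE 0.57, adjusted p = 0.146).

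Among 26 antigen presentation and interferon gamma response genes, 20 lay above ITGB4-high in every lung library and 2 below, 7 of them at least 2-fold above, with a median log2 difference of 0.84, or 0.80 with the member at 0 in ITGB4-high cells set at its bound. edgeR called 0, with 12 above and 0 below at an unadjusted p under 0.05, and DESeq2 called 9 higher. HLA-B, a class I heavy chain, had 389, 436 and 440 CPM in lung cells, against 213 CPM in ITGB4-high cells and 389 and 400 CPM in controls (0.99, SE 0.17, adjusted p = 0.0881). The chemokine CXCL10 had 4.42, 3.07 and 4.17 CPM in lung cells, against 0.657 CPM in ITGB4-high cells and 0.0693 and 0.184 CPM in controls (2.55, SE 0.55, adjusted p = 0.114). HLA-B stood at the control level in lung cells, while CXCL10 stood beyond ITGB4-high.

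The ITGB4-high state was next defined from culture alone. ITGB4-high cells were at least 2-fold above both controls on 938 genes (5.98%) and at least 2-fold below both on 1948 (12.4%), and each lung library was placed on the log2 distance from the control mean, 0, to ITGB4-high, 1. Of the 938 higher genes, all 3 lung libraries had gone at least 0.5 of the way on 201 (21.4%), had all gone past 1.5 of it on a further 7, and had stayed under 0.5 on 219 (23.3% of them and 1.4% of all genes tested). The libraries lay on both sides of a limit for the other 511. Of the 1948 lower genes, 296 (15.2%) were reached, 5 passed, 578 (29.7% of them and 3.69% of all genes) not reached, and 1069 split. Of the genes not reached, 146 of the 219 and 437 of the 578 were also at least 2-fold from ITGB4-high in all 3 lung libraries. The ITGB4-high library enters both the choice of these genes and the distance, so these counts are descriptive.

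The libraries differed in how far they had gone. LM2 clone 1 had gone at least 0.5 of the way on 61% of the higher genes, LM2 clone 3 on 35.8% and bleomycin clone 1 on 56.3%, with median shares of 0.64, 0.36 and 0.58. On the lower genes the percentages were 59.3%, 23.2% and 44.1%, with median shares of 0.61, 0.28 and 0.44. LM2 clone 3 was thus nearer to the controls on both sides. LM2 clone 1 was at or past ITGB4-high on 27.9% of the higher genes, LM2 clone 3 on 9.49% and bleomycin clone 1 on 21%. Genes not reached numbered 797 in all, and 1337 without LM2 clone 1. Genes reached numbered 497, and 1045 without LM2 clone 3.

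**Figure D3:**
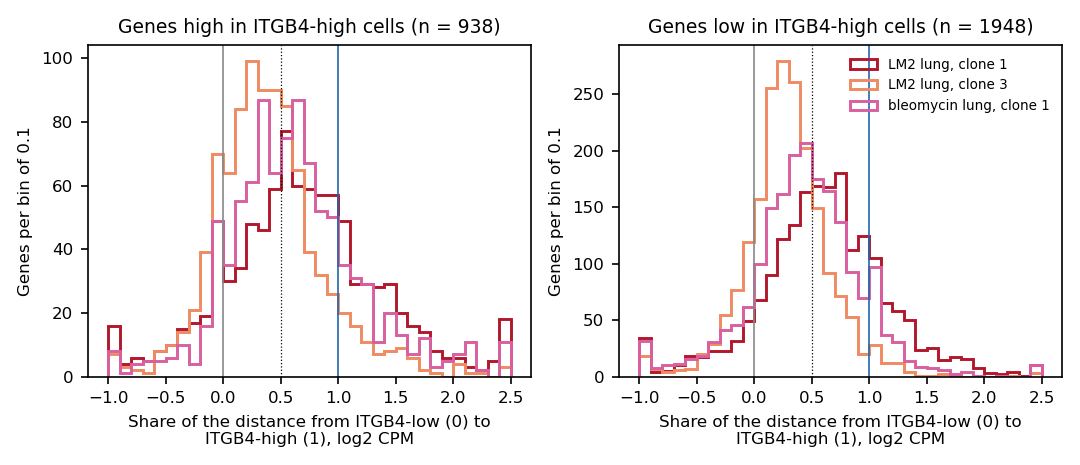
Histograms, in bins of 0.1, of the share of the log2 CPM distance from the control mean (0, grey line) to ITGB4-high (1, blue line) that each lung library covered, for 938 genes high and 1948 genes low in ITGB4-high cells; values beyond the axis are drawn at its ends and the dotted line marks 0.5. LM2 clone 3, with medians of 0.36 and 0.28, lies left of LM2 clone 1, with medians of 0.64 and 0.61.

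Hemidesmosome and laminin-332 genes were among those that lung cells approached, with exceptions. Of 6 genes of this list that were high in ITGB4-high cells, 3 were reached and 0 were not reached by all libraries. The shares over all 938 genes high in ITGB4-high cells were 21.4% reached and 23.3% not reached. Over the 12 tested, the median log2 difference was 0.23, with library medians of 0.62, -0.078 and -0.035, 1 lay at least 2-fold above ITGB4-high and 1 at least 2-fold below, and edgeR called 0, with 2 above and 2 below at an unadjusted p under 0.05 and 1 higher and 2 lower in DESeq2. LAMB3, a laminin-332 chain, had 592, 22.9 and 118 CPM in lung cells, against 111 CPM in ITGB4-high cells and 7.41 and 5.1 CPM in controls (1.14, SE 1.55, adjusted p = 0.729). LM2 clone 1 was highest and LM2 clone 3 lowest.

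COL17A1, the transmembrane collagen of the hemidesmosome, was the member at least 2-fold below ITGB4-high in every lung library. It had 9.92, 2.37 and 1.6 CPM in lung cells, against 60.4 CPM in ITGB4-high cells and 0.139 and 0.0919 CPM in controls (-3.72, SE 0.82, adjusted p = 0.118). The lung libraries were above both controls and below ITGB4-high. ITGA3, the alpha-3 chain of another laminin receptor, had 421, 271 and 343 CPM in lung cells, against 736 CPM in ITGB4-high cells and 206 and 227 CPM in controls (-1.09, SE 0.24, adjusted p = 0.119).

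Among keratins, 4 of 5 that were high in ITGB4-high cells were reached, against 21.4% of all 938 genes high in those cells. KRT75 (chromosome 12, 52424070 to 52434525, minus strand) had 273, 244 and 167 CPM in lung cells, against 75.6 CPM in ITGB4-high cells and 2.7 and 2.25 CPM in controls (1.59, SE 0.31, adjusted p = 0.102). All 3 lung libraries were at least 2-fold beyond ITGB4-high on KRT75. KRT5, the basal keratin, was low in both cultured states and higher in each lung library, at 212, 113 and 12.3 CPM in lung cells, against 3.28 CPM in ITGB4-high cells and 2.29 and 2.67 CPM in controls (5.09, SE 1.74, adjusted p = 0.214). KRT14, its usual partner, had 9.45, 7.42 and 1.35 CPM in lung cells, against 1.46 CPM in ITGB4-high cells and 0.0693 and 0.046 CPM in controls (2.05, SE 1.09, adjusted p = 0.376). The bleomycin library was the lowest of the 3 on each of these keratins. Of the 15 keratins tested, 4 were at least 2-fold above ITGB4-high and 1, KRT80, at least 2-fold below, and edgeR called 0, with 5 above and 1 below at an unadjusted p under 0.05 and 3 and 1 in DESeq2. Counts of close keratin paralogs are uncertain where reads are shared.

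RASIP1, ABLIM1 and CRIP2 were high in ITGB4-high cells and stood close to that level or past it in lung cells. RASIP1, an effector of Rap1 and Ras in cell adhesion, had 23.3, 26.8 and 22.6 CPM in lung cells, against 16 CPM in ITGB4-high cells and 0.346 and 0.23 CPM in controls (0.60, SE 0.24, adjusted p = 0.258). ABLIM1, an actin-binding LIM protein, had 140, 88.5 and 84 CPM in lung cells, against 84.9 CPM in ITGB4-high cells and 5.47 and 5.38 CPM in controls (0.30, SE 0.31, adjusted p = 0.651). CRIP2, another LIM protein, was past ITGB4-high, at 18.1, 19 and 19.6 CPM in lung cells, against 6.06 CPM in ITGB4-high cells and 1.32 and 0.873 CPM in controls (1.64, SE 0.29, adjusted p = 0.0898). On these 3 genes no lung library fell near the controls.

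S100A2, an S100 calcium-binding protein of basal epithelium, had 28, 28 and 6.35 CPM in lung cells, against 111 CPM in ITGB4-high cells and 0.97 and 1.29 CPM in controls (-2.42, SE 0.68, adjusted p = 0.16). It was above the controls and at least 2-fold below ITGB4-high in every lung library. HMGA1, an architectural chromatin protein, had 237, 137 and 201 CPM in lung cells, against 522 CPM in ITGB4-high cells and 117 and 111 CPM in controls (-1.44, SE 0.28, adjusted p = 0.0978). SDC1, the heparan sulfate proteoglycan syndecan-1, had 49.7, 51.8 and 41.9 CPM in lung cells, against 119 CPM in ITGB4-high cells and 13.9 and 21.1 CPM in controls (-1.31, SE 0.25, adjusted p = 0.0917), and IL6R, the interleukin-6 receptor, had 29.7, 21 and 29.7 CPM, against 70.9 CPM and 16.8 and 20 CPM (-1.40, SE 0.24, adjusted p = 0.0881). IL6R in lung cells stood just over the controls.

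Inflammatory genes of the ITGB4-high state were reached more often than not, but unevenly between libraries. Of 13 NF-kB targets and cytokines high in ITGB4-high cells, 9 were reached and 0 were not reached by all 3 libraries. Over all 938 genes high in ITGB4-high cells, 21.4% were reached and 23.3% not reached. Over 30 tested, 3 were at least 2-fold above ITGB4-high and 0 below, and the median was 1.57 for LM2 clone 1, -0.29 for LM2 clone 3 and 0.45 for bleomycin clone 1. edgeR called 0, with 4 above and 0 below at an unadjusted p under 0.05, and DESeq2 called 4 higher. CXCL8, a neutrophil chemokine, had 1058, 34.5 and 143 CPM in lung cells, against 128 CPM in ITGB4-high cells and 10.9 and 19.4 CPM in controls (1.69, SE 1.76, adjusted p = 0.647). ICAM1, a leukocyte adhesion molecule, had 294, 86.8 and 156 CPM in lung cells, against 107 CPM in ITGB4-high cells and 24.9 and 21.6 CPM in controls (0.74, SE 0.63, adjusted p = 0.573). IL6 had 68.5, 8.57 and 26.7 CPM in lung cells, against 4.09 CPM in ITGB4-high cells and 2.01 and 2.8 CPM in controls (3.08, SE 1.22, adjusted p = 0.262), above all cultured libraries. In each of these genes LM2 clone 1 was highest and LM2 clone 3 lowest.

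SERPINA1, the protease inhibitor alpha-1-antitrypsin, was low in both cultured states and had 143, 102 and 187 CPM in lung cells, against 10.2 CPM in ITGB4-high cells and 7.06 and 6.16 CPM in controls (3.82, SE 0.42, adjusted p = 0.0532). It was close to the threshold and alike in direction in all 3 libraries. VCAM1, an adhesion receptor for leukocytes, had 84.5, 11.8 and 95 CPM in lung cells, against 0.438 CPM in ITGB4-high cells and 2.42 and 2.48 CPM in controls (7.16, SE 1.70, adjusted p = 0.13). The complement proteases C1R and C1S were above ITGB4-high too, with C1R at 15, 14.1 and 48.8 CPM in lung cells, against 3.07 CPM in ITGB4-high cells and 2.35 and 3.17 CPM in controls (3.08, SE 0.93, adjusted p = 0.181). Of 16 acute-phase and complement genes, 5 were at least 2-fold above ITGB4-high and 0 below, with a median log2 difference of 1.75. The library medians were uneven, at 0.59 for LM2 clone 1, -0.17 for LM2 clone 3 and 2.20 for bleomycin clone 1, and 2 members lay below ITGB4-high in every lung library. edgeR called 0, with 5 above and 0 below at an unadjusted p under 0.05 and 3 higher in DESeq2.

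ERK pathway output genes stood below ITGB4-high in some lung libraries. Of 12 that were high in ITGB4-high cells, 3 were reached, 0 were not reached by all, and the rest were split. Over all 938 genes high in ITGB4-high cells, 21.4% were reached and 23.3% not reached. The count reached thus lay near its share. The median over 22 genes was 0.05 for LM2 clone 1, -0.85 for LM2 clone 3 and -0.60 for bleomycin clone 1, and 9 lay below ITGB4-high in every lung library against 2 above. Of these 22, 0 were at least 2-fold above and 0 at least 2-fold below ITGB4-high in every lung library. edgeR called 0, with 1 above and 2 below at an unadjusted p under 0.05, and DESeq2 called 1 higher. SPRY4, a feedback inhibitor of the pathway, had 378, 101 and 221 CPM in lung cells, against 567 CPM in ITGB4-high cells and 63 and 74.6 CPM in controls (-1.28, SE 0.60, adjusted p = 0.324). TGFA, a ligand of the EGF receptor, had 32.9, 10 and 15.8 CPM in lung cells, against 64.9 CPM in ITGB4-high cells and 1.11 and 1.15 CPM in controls (-1.73, SE 0.55, adjusted p = 0.193). Both stood between the cultured states in every lung library. The related ligand AREG was uneven, at 470, 31.8 and 58.1 CPM in lung cells, against 46.8 CPM in ITGB4-high cells and 13 and 10.1 CPM in controls (2.0, SE 1.57, adjusted p = 0.542).

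Cell division genes stood above ITGB4-high mainly in LM2 clone 3 and bleomycin clone 1. Of 40 G2/M genes, 24 lay above ITGB4-high in every lung library and 0 below, with a median log2 difference of 0.10 for LM2 clone 1, 0.85 for LM2 clone 3 and 1.07 for bleomycin clone 1. Of these 40, 1 was at least 2-fold above ITGB4-high in every lung library and 0 were below, against 5.04% and 1.67% of all genes tested. edgeR called 0, with 9 above and 0 below at an unadjusted p under 0.05 and 5 higher in DESeq2. MKI67, which encodes the proliferation marker Ki-67, had 686, 881 and 957 CPM in lung cells, against 710 CPM in ITGB4-high cells and 716 and 853 CPM in controls (0.25, SE 0.24, adjusted p = 0.63). AURKB, a mitotic kinase, had 24.7, 42 and 46.9 CPM in lung cells, against 8.25 CPM in ITGB4-high cells and 27.1 and 31.3 CPM in controls (2.20, SE 0.42, adjusted p = 0.0958), and it lies on 17p, where the arm's median was 0.832, 0.805 and 0.787. MKI67 overlapped between all groups.

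Among 24 cell cycle inhibitors and genes linked to dormancy, TGFB2 was called higher and 0 were called lower in edgeR. The list held 7 genes at least 2-fold above ITGB4-high and 0 below. Of 11 low in ITGB4-high cells, 3 were reached, 3 were not reached and the rest were split. Over all 1948 genes low in ITGB4-high cells, 15.2% were reached and 29.7% not reached. The count not reached thus lay near its share. Of 23 YAP target genes, 4 were at least 2-fold above ITGB4-high and 0 below, with 1 call, TGFB2 again. CTGF, a matricellular YAP target, had 29.7, 33.6 and 15.8 CPM in lung cells, against 13 CPM in ITGB4-high cells and 163 and 270 CPM in controls (1.02, SE 0.50, adjusted p = 0.347). The LM2 libraries were more than 2-fold above ITGB4-high, the bleomycin library was close to it, and all were far under the controls. Of 24 cholesterol synthesis genes, 4 were at least 2-fold above and 0 below. The sterol carrier STARD4 had 31.6, 27.4 and 27.8 CPM in lung cells, against 10.1 CPM in ITGB4-high cells and 34 and 38.5 CPM in controls (1.51, SE 0.21, adjusted p = 0.0734), close to the control level. Nuclear oxidative phosphorylation genes were near ITGB4-high, with 0 of 38 at least 2-fold apart and a median of 0.09.

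**Figure D4:**
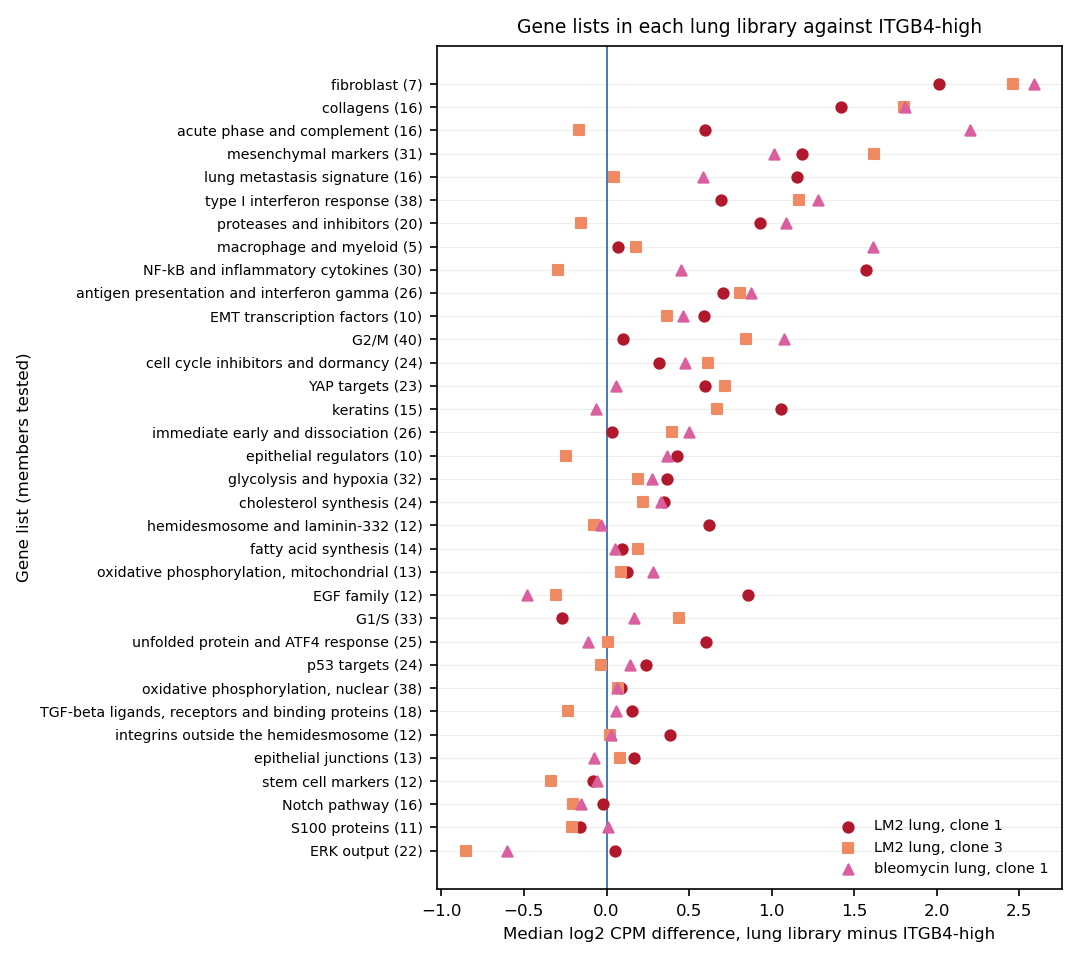
Median log2 CPM difference, each lung library minus ITGB4-high, over the tested members of each gene list (number in parentheses); each symbol is 1 lung library and the line at 0 is ITGB4-high. Collagens lie at 1.42, 1.80 and 1.81, whereas the NF-kB list runs over 1.57, -0.29 and 0.45 and ERK output over 0.05, -0.85 and -0.60.

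Whole chromosome arms also separated recovered from ITGB4-high cells. The 263 tested genes of 17p had the median differences given above in each lung library, and 18.6% of them were at least 2-fold above ITGB4-high, against 5.04% of all genes. ITGB4-high cells were in turn under the controls on this arm, with a median log2 difference of -0.81 from control clone 1 and -0.82 from control clone 3. Of 89 genes of 17p low in ITGB4-high cells, lung cells had not reached that level on 62, against 578 of 1948 over all arms. On 3q, with 461 genes, 20 of 49 genes high in ITGB4-high cells were not reached, against 219 of 938 over all arms. On 18p, with 68 genes, the median was 0.28, 0.32 and 0.32. SERPINF1, the secreted protein PEDF, lies on 17p and had 13.9, 36.8 and 34.9 CPM in lung cells, against 0.073 CPM in ITGB4-high cells and 1.32 and 0.69 CPM in controls (adjusted p = 0.0753). The 9 collagens that were at least 2-fold above ITGB4-high lie outside 17p, 18p and 3q. DNA was not measured, and the part of the arms in single genes was not tested.

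Other arms differed between the lung libraries. On 4q the median was 0.50 for LM2 clone 1, 0.15 for LM2 clone 3 and 0.17 for bleomycin clone 1, and on 4p it was 0.38, -0.06 and -0.06. On 11p it was 0.44 in LM2 clone 1 and 0.44 in bleomycin clone 1, against 0.0040 in LM2 clone 3. Cultured control clone 1 had no such shift, since ITGB4-high minus control clone 1 was 0.031 on 11p and ITGB4-high minus control clone 3 was -0.034. CXCL8, AREG and PDGFRA, which were highest in LM2 clone 1, lie on 4q, and IFITM3 lies on 11p.

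**Figure D5:**
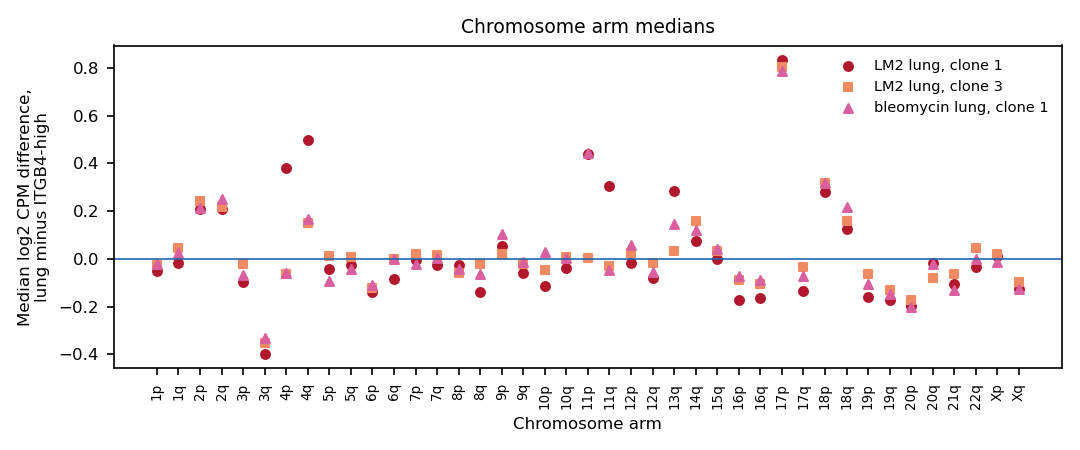
Median log2 CPM difference, each lung library minus ITGB4-high, over the tested genes of each chromosome arm; each symbol is 1 lung library. On 17p the 3 libraries lie at 0.832, 0.805 and 0.787 and on 3q at -0.397, -0.352 and -0.330, while 11p lies at 0.44 in both clone 1 libraries and at 0.0040 in LM2 clone 3.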

How the data were processed

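The labels' protocols describe stranded poly(A) RNA-seq libraries of SUM159 cells. The submitters' processing notes name STAR 2.7.1a and hg38. Not given in the sources used here are the counter, the annotation and whether strand was used, so overlapping antisense genes such as those at CD3EAP may share reads. The table the authors deposited holds raw counts for 58336 genes in 6 libraries, and 58216 IDs matched GENCODE 29, which gave arms and coordinates.

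Genes passing edgeR's filterByExpr (minimum count 10) were fitted over all 6 libraries in 3 classes (lung n = 3, ITGB4-high n = 1, ITGB4-low n = 2) with TMM and the quasi-likelihood test (edgeR 4.0.16, R 4.3.3), with Benjamini-Hochberg adjustment at 0.05. The filter was set by class, so a gene could pass it through the ITGB4-high library alone. CPM are TMM-normalised, and logs for shares and library differences used a prior count of 2. SE is the absolute log2 difference over the square root of F. DESeq2 1.42.0, limma-voom (limma 3.58.1), other settings and left-out libraries were alternatives. The scripts were tested on simulated data. Named genes were called genes with a mean log2 CPM of 2 or more, called list members and 30 core genes, of which 1 is not reported here. The members, lists and rules were chosen with earlier results of these data known. Clones pair the LM2 and control libraries by their titles, and ITGB4-high has no pair. The correlation of their deviations was 0.00115 over 15673 genes.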

Additional observations from a re-analysis of the deposited data

Results flagged for a closer look

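Both LM2 libraries lay on 1 side of ITGB4-high and the bleomycin library on the other in 2 of 41 called and core genes. Among the lists with 5 or more tested members, 4 had this pattern in their medians. How often it occurs over all genes, without a fold minimum, was not counted. The 2 genes and 4 lists are therefore not read as a difference between triggers, and several of the medians lay close to the ITGB4-high level. Over all genes tested, 1 gene had both LM2 libraries at least 2-fold above ITGB4-high and the bleomycin library at least 2-fold below it, and 2 genes had the reverse. ITGB4 was above ITGB4-high in both LM2 lung libraries and below it in the bleomycin library, with a log2 difference, bleomycin minus LM2, of -0.58 (adjusted p = 0.926, edgeR). KRT14 was also above in both LM2 libraries and below in the bleomycin library, with a difference of -2.64 (adjusted p = 0.911, edgeR). The median log2 difference of the keratin list from ITGB4-high was -0.065 in the bleomycin library, against 1.06 and 0.671 in the LM2 libraries. For epithelial junction genes it was -0.077 in the bleomycin library, against 0.165 and 0.080 in the LM2 libraries. For the unfolded protein and ATF4 response it was -0.11 in the bleomycin library, against 0.601 and 0.0093 in the LM2 libraries. For S100 proteins it was 0.0083 in the bleomycin library, against -0.159 and -0.208 in the LM2 libraries. The list differences were not tested, and bleomycin is 1 library of clone 1.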

How the results depend on the processing

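The count of 17 genes (5 higher, 12 lower) was also 17 with RLE size factors and 15 in limma-voom, with 2 higher. Without a filter it was 1396 (942 higher, 454 lower) and in DESeq2 1086 (789 and 297). It was 0 (0 higher and 0 lower) with the clone as a replicate block, with 4 groups, and with only the lung and ITGB4-high libraries. Leaving out 1 library gave 0 to 1432 calls, 0 to 852 higher and 0 to 580 lower. The 2-fold rule, chosen after seeing the data, gave 940 to 1278 genes above and 372 to 431 below with a lung library left out, and 573 below without a filter. State genes at least 2 log2 units from both controls gave 294 not reached, 197 reached and 3 passed. Limits of 0.25 and 0.75 of the distance gave 328 and 161. With 1 library left out, 874 to 1337 were not reached, 580 to 1045 reached and 18 to 47 passed. Leaving out 17p, 18p and 3q, also chosen after seeing the data, left 15 calls. Some log2 differences reversed when 1 library was left out: without LM2 clone 1, ITGB4 (-0.036, with values up to 0.25 without another library), LAMB3 (-0.65, up to 1.71), CXCL8 (-0.53, up to 2.26), AREG (-0.056, up to 2.52) and EREG (-1.15, up to 0.55); and without bleomycin, SNAI2 (0.12, down to -0.99). EREG was -0.50 in limma-voom, -0.48 with the replicate block and -0.0041 with 4 groups. The cause was not tested. At these depths, genes under about 3 counts give no fold.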
